A study of Mus musculus with 15 samples.

Results

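The genes of the ISG15 conjugation machinery are described here in CT26 mouse colon tumor cells after loss or inhibition of PRMT1. They are Isg15, Uba7, Ube2l6, Herc6 and Usp18, 5 of the 34432 genes listed, chosen by symbol for their roles in ISG15 conjugation and removal. ISG15 is a ubiquitin-like protein that is attached to target proteins through a relay of enzymes. Uba7 activates it, Ube2l6 carries it, Herc6 is the main ligase that places it on targets in the mouse, and the protease Usp18 takes it off again. Usp18 protein also binds the type I interferon receptor and dampens its signal, and all of these genes are known as targets of interferon signalling.

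PRMT1 is the main enzyme that places asymmetric dimethyl groups on arginine, and the study asked which genes respond when it is lost or blocked in tumor cells. RNA was sequenced in 2 experiments with 15 libraries in all. In the first, 3 shControl libraries were set beside 3 shPrmt1 libraries, whose cells carried a doxycycline (DOX)-inducible Prmt1 hairpin and had received DOX for 3 days. Whether DOX was also given to shControl cells is not stated in the labels. In the second, 3 Vehicle libraries were set beside 3 libraries of cells kept with MS023 and 3 with GSK3368715, which are inhibitors of type I arginine methyltransferases, each at 6 µM for 48 hours. Both inhibitors block other type I enzymes besides PRMT1. All groups are the same cell line, which came from BALB/c mice, grown without host tissue, and the hairpin cells had been infected with lentivirus and selected with puromycin. The 3 libraries of a group are biological replicates by the study's design, and no label says how their cultures were separated.

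Values are normalized counts, which are gene counts divided by a size factor for each library, and the experiments were normalized apart from each other. The libraries held 17284091 to 29233738 reads on genes in the knockdown experiment and 40119305 to 93697833 in the inhibitor experiment. In the shPrmt1 libraries Prmt1 itself stood at 669 to 761 normalized counts, against 5601 to 5717 with the control hairpin. With the inhibitors, which block the enzyme and not its transcript, Prmt1 stood at 14063 to 16057 normalized counts against 15133 to 16107 with vehicle. Of the epithelial markers Krt18 was present at 14.6 to 28.4 RPM, a unit of reads scaled to all reads on genes in the library, while Epcam had no read in any of the 15 libraries and Cdh1 none in 11. The mesenchymal marker Vim ran from 2814 to 3486 RPM. The leukocyte markers summed to 1.28 to 2.20 RPM in the knockdown experiment and 3.32 to 4.74 in the inhibitor experiment, and the T cell marker Cd3e had no read. In bulk RNA, a change in the number of cells that express a gene and a change in RNA per cell cannot be told apart.

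The genes lie on 4 chromosomes of mm10. Isg15 (ENSMUSG00000035692) is on the minus strand at chr4:156199424-156200818, and the others are on the plus strand. These are Uba7 (ENSMUSG00000032596) at chr9:107975505-107984060, Ube2l6 (ENSMUSG00000027078) at chr2:84798828-84810335, Herc6 (ENSMUSG00000029798) at chr6:57581000-57664632 and Usp18 (ENSMUSG00000030107) at chr6:121245906-121270917. The coding sequences of the modifier and its carrier are short, at 483 and 459 bases for Isg15 and Ube2l6, beside 1104 bases for Usp18, 2931 for Uba7 and 3009 for Herc6. One gene, AC151275.1, matched Isg15 at 95.2% identity over 63.8% of the longer transcript and was not analysed here, so reads of these genes may not be separable. Uba7 shares 233 exon bases on the same strand with Gm20661, which reached at most 3.22 normalized counts in a library. Herc6 shares 1269 exon bases on the same strand with Gm45193, and Usp18 shares 124 exon bases with Gm44148 on the other strand. Neither of those neighbours was analysed here, and the sources used here do not give whether the counting used strand.

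Promoter sequences are shown because interferon targets are commonly recognised by short elements next to the start site. Windows of 300 bases, from 250 before to 50 after the start in RefSeq on GRCm38.p6, were matched for 4 of the 5 genes, Isg15, Uba7, Ube2l6 and Herc6. They were searched on both strands for the core of the interferon-stimulated response element, read as GAAA, any 2 bases and GAAA, and for the gamma-activated site, read as TTC, any 3 bases and GAA. The windows are Isg15 at chr4:156200769-156201068 on the minus strand, and Uba7 at chr9:107975317-107975616, Ube2l6 at chr2:84798578-84798877 and Herc6 at chr6:57580742-57581041 on the plus strand. Capitals mark the response element core, and each line runs 5′ to 3′ along the strand of its gene.
Isg15: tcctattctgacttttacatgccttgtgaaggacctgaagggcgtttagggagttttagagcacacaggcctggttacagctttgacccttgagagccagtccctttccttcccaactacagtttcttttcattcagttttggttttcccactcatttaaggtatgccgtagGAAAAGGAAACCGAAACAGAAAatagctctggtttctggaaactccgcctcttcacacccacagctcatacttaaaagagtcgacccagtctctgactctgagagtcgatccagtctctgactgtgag
Uba7: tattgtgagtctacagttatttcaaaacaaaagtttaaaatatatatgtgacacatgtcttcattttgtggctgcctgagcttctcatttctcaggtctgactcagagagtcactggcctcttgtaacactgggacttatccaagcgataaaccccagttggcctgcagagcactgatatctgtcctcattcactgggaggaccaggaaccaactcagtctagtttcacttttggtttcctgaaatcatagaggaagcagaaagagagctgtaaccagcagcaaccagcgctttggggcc
Ube2l6: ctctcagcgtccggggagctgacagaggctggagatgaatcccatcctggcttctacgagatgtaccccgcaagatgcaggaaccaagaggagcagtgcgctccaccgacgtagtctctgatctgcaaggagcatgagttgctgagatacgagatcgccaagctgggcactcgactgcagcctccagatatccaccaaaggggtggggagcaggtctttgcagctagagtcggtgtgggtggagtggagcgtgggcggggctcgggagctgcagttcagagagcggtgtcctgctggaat
Herc6: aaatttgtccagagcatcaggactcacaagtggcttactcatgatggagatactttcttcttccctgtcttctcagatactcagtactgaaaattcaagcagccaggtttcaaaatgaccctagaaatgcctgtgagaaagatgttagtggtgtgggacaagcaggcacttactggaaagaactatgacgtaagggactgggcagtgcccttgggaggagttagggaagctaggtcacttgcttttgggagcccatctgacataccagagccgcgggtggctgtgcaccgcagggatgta
The Isg15 window held 3 overlapping matches to the core, GAAAAGGAAA, GAAACCGAAA and GAAACAGAAA, whose first bases lie at -78, -72 and -66 from the start. The windows of Uba7, Ube2l6 and Herc6 held no match to it, and none of the 4 windows held the gamma-activated site. Of all 32851 windows of this length, 3.44% held the response element core and 8.30% the gamma-activated site. A match is a description of these letters only. Only exact matches were searched, so a window without a match may still hold a variant of either element.

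All 5 genes were higher in shPrmt1 than in shControl cells, by 1.54 times for Ube2l6 to 3.30 times for Uba7. Isg15, the modifier itself, had 438, 440 and 421 normalized counts with the control hairpin, and 892, 811 and 880 with the Prmt1 hairpin. The lowest shPrmt1 library thus lay well above the highest shControl library. The log2 change of Isg15 was 0.99 with an SE of 0.08 (limma, Benjamini-Hochberg adjusted p = 1.9e-04). Uba7, the activating enzyme, was the least abundant, at 47.5, 59.0 and 34.3 normalized counts with the control hairpin and 147, 190.3 and 130 with the Prmt1 hairpin. Its groups did not overlap, although the shControl libraries varied among themselves by a CV of 26.4%. The log2 change of Uba7 was 1.72 with an SE of 0.23 (limma adjusted p = 0.0024), the 89th highest of the 11485 genes tested.

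Ube2l6, the conjugating enzyme that carries ISG15, had 687, 631 and 679 normalized counts in shControl and 1041, 973 and 1061 in shPrmt1. All shPrmt1 libraries were higher, and the rise was the smallest of the 5, at 0.62 on the log2 scale with an SE of 0.07 (limma adjusted p = 0.0015). For the ligase Herc6 the libraries stood at 339, 396 and 417 normalized counts in shControl and 670, 907 and 848 in shPrmt1. The shPrmt1 library at 670 was the nearest to the controls and still above all of them. The log2 change of Herc6 was 1.07 with an SE of 0.13 (limma adjusted p = 0.0016). Usp18, the protease, moved from 364, 331 and 291 normalized counts to 1033, 1036 and 974. The shPrmt1 libraries lay close to each other, with a CV of 3.48%, and far from the controls. Usp18 had a log2 change of 1.63 with an SE of 0.10 (limma adjusted p = 5.4e-05), the 106th highest.

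Thus 5 of 5 genes were called higher in shPrmt1, against 7.5% of all genes tested, and in 5 of 5 every shPrmt1 library lay above every shControl library, against 19.2% of all genes tested. The median change of the 5 genes was 1.07 on the log2 scale, and that of all genes tested was 0.00. No gene lost its call when a single library was left out. Among the cell type markers, the 8 epithelial markers summed to 27.0 to 29.1 RPM in shControl and 18.7 to 23.4 in shPrmt1, and the 3 endothelial markers to 0.547 to 0.578 and 0.116 to 0.390. Of the epithelial markers only Krt18 was tested, and it was called lower (-0.41 on the log2 scale, limma adjusted p = 0.031). Of the endothelial markers only Pecam1 was tested, and its change was not called (-1.04 on the log2 scale, limma adjusted p = 0.17). The mesenchymal markers Col1a1 and Pdgfrb rose by 0.97 and 0.69 on the log2 scale (limma adjusted p = 0.0082 and 0.0027), while the sum of the 4 markers, mostly Vim, ran from 3280 to 3387 and from 2979 to 3709 RPM. The part of these markers in the result was not tested.

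**Figure D1:**
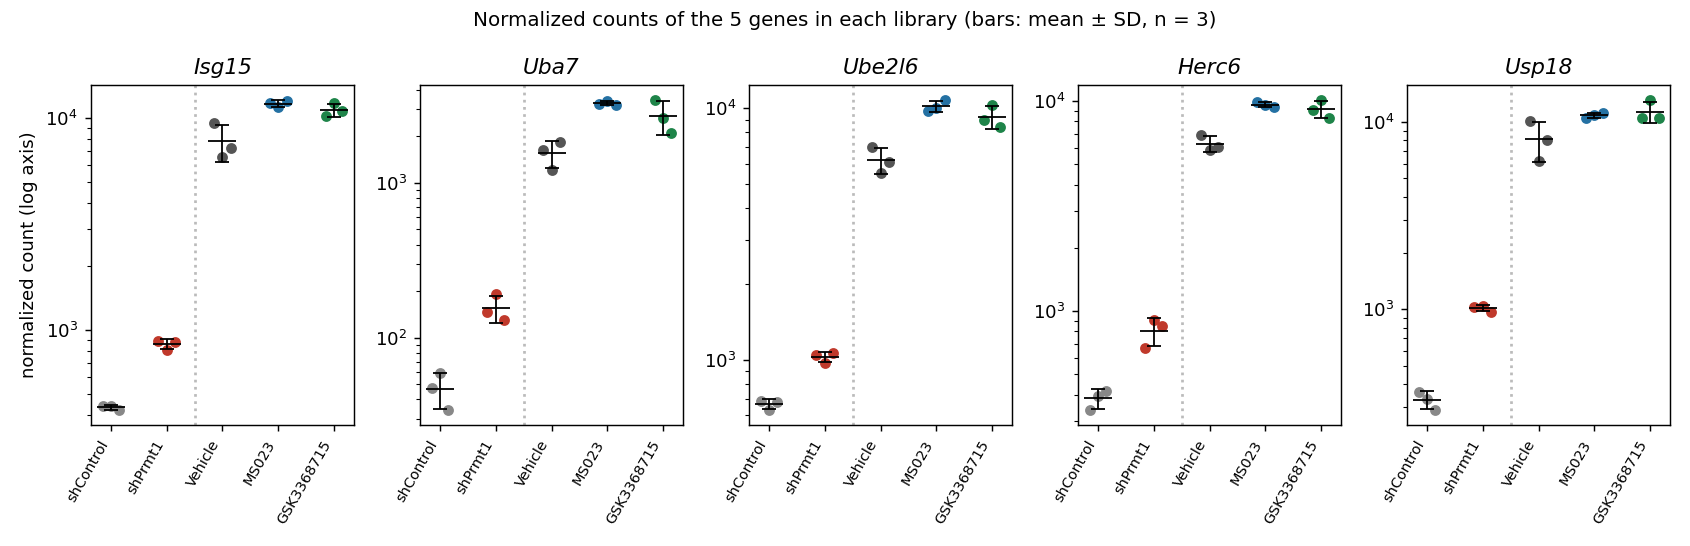
Normalized counts (log axis) of Isg15, Uba7, Ube2l6, Herc6 and Usp18 in each of the 15 libraries by group, with bars for the mean ± SD (n = 3); a dotted line parts the experiments, which were normalized separately. In every panel all treated points lie above all points of their own control group, and the lowest Vehicle point is the replicate 2 library.

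With MS023 all 5 genes were again higher than with vehicle, by 1.37 times for Usp18 to 2.12 times for Uba7. Isg15 had 9512, 6556 and 7237 normalized counts in the Vehicle libraries and 11805, 11246 and 12068 in the MS023 libraries. The MS023 libraries were close together and all lay above Vehicle replicate 1, the highest control. Isg15 rose by 0.61 on the log2 scale with an SE of 0.11 (limma adjusted p = 0.0031). For Uba7 the Vehicle libraries held 1636, 1209 and 1827 normalized counts and the MS023 libraries 3210, 3378 and 3193. This was the largest change of the machinery with MS023, with a wide gap between the groups. It amounted to 1.09 on the log2 scale with an SE of 0.17 (limma adjusted p = 0.0013).

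Ube2l6 had 6991, 5531 and 6077 normalized counts with vehicle and 9755, 10037 and 10729 with MS023. The carrier enzyme rose by 0.72 with an SE of 0.09 (limma adjusted p = 4.1e-04), and no libraries overlapped. Herc6 had 6879, 5858 and 6050 normalized counts with vehicle and 9862, 9578 and 9380 with MS023. The ligase rose by 0.62 with an SE of 0.08 (limma adjusted p = 3.6e-04), again without overlap. Usp18 was at 10113, 6169 and 7985 normalized counts with vehicle and at 10527, 10872 and 11211 with MS023. Here the highest control came close to the lowest treated library, and the controls differed from each other by a CV of 24.4%. Usp18 had a log2 change of 0.45 with an SE of 0.15 and was called narrowly (limma adjusted p = 0.041).

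Called higher with MS023 were 5 of 5 genes, against 13.7% of all genes tested, and every MS023 library lay above every Vehicle library in 5 of 5, against 22.4% of all. The median change was 0.62 on the log2 scale. The Usp18 call was lost when Vehicle replicate 2 was left out (change 0.27, limma adjusted p = 0.096), and also without Vehicle replicate 3 (adjusted p = 0.091) or without MS023 replicate 1, 2 or 3 (adjusted p = 0.082, 0.098 and 0.11). The edgeR quasi-likelihood test on recovered reads gave it an adjusted p of 0.051, and the fit with a replicate block 0.070. The limma adjusted p was 0.055 with no filter, 0.091 with no trend and 0.052 with only the groups compared. In all, 11 of 21 alternatives lost the Usp18 call, including a minimum fold change, which loses it by construction. The epithelial markers, mostly Krt18, summed to 15.6 to 18.2 RPM with vehicle, 23.5 to 25.5 with MS023 and 19.4 to 21.0 with GSK3368715. Krt18 was called higher with MS023 (0.55 on the log2 scale, limma adjusted p = 6.9e-04) and GSK3368715 (0.27, adjusted p = 0.049), opposite to its fall in shPrmt1. Krt8, at most 0.446 RPM in any library, was called higher with MS023 (1.83, limma adjusted p = 0.033) and not with GSK3368715. Cdx2 and Lgals4 were not called with either. Of the mesenchymal markers, Pdgfrb was called higher with MS023 (0.40 on the log2 scale, limma adjusted p = 0.018) and with GSK3368715 (0.64, adjusted p = 0.0056), as it was in shPrmt1. Col1a1 fell with MS023 (-0.52, limma adjusted p = 0.0032) and was not called with GSK3368715 (-0.11, adjusted p = 0.53). The part of these markers in the inhibitor results was not tested. Vehicle replicate 2 had the lowest value of its group for 5 of the 5 genes, and Vehicle replicate 1 the highest for 4.

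With GSK3368715 the 5 genes stood 1.42 to 1.73 times above vehicle, and 4 of them were called. The controls are the same 3 Vehicle libraries as for MS023, so the inhibitor comparisons are not independent of each other. Isg15 had 10237, 11759 and 10794 normalized counts with GSK3368715, all above the Vehicle libraries. The modifier rose by 0.51 on the log2 scale with an SE of 0.11 (limma adjusted p = 0.020). Uba7 had 3405, 2626 and 2085 normalized counts, so that replicate 3 lay only a little above the highest Vehicle library at 1827. Uba7 rose by 0.79 with an SE of 0.17 (limma adjusted p = 0.018).

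Ube2l6 had 8996, 10282 and 8440 normalized counts with GSK3368715, and Herc6 had 9033, 10063 and 8309. Both the carrier and the ligase were clear of the controls in every library. Ube2l6 rose by 0.58 with an SE of 0.09 and Herc6 by 0.54 with an SE of 0.08 (limma adjusted p = 0.0049 and 0.0029). Usp18 had 10521, 13047 and 10519 normalized counts, with replicates 1 and 3 just above the highest Vehicle library at 10113. The Usp18 change was 0.51 with an SE of 0.15 and a 95% interval of 0.19 to 0.84, and it was not called (limma adjusted p = 0.054). DESeq2 on recovered reads called it (adjusted p = 0.0079), as did the limma fit without Vehicle replicate 1 (change 0.69, adjusted p = 0.0067).

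Called higher with GSK3368715 were thus 4 of 5 genes, against 5.16% of all genes tested, and every treated library lay above every control in 5 of 5, against 13.7% of all. The median change was 0.54 on the log2 scale. Ube2l6 and Herc6 kept their calls whichever library was left out. The Isg15 call was lost without Vehicle replicate 3 (limma adjusted p = 0.075), GSK3368715 replicate 2 (0.066) or GSK3368715 replicate 3 (0.051). The Uba7 call was lost without GSK3368715 replicate 1 (limma adjusted p = 0.052) or replicate 2 (0.051). GSK3368715 replicate 2 had the highest value of its group for 4 of the 5 genes. The 5 genes varied less among the MS023 libraries, by a CV of 2.52% to 4.92%, than among the Vehicle libraries (8.66% to 24.4%) and the GSK3368715 libraries (7.05% to 24.5%). These differences in spread were not tested.

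The inhibitors were compared with each other at the same dose and time, 1 pair of compounds over 5 genes. None of the 5 genes was called as different in limma, against 0.515% of all genes tested, and none had an unadjusted p under 0.05. The edgeR and DESeq2 tests on recovered reads called 0 of the 5 as well. The difference, GSK3368715 minus MS023 on the log2 scale, was -0.10 for Isg15 with a 95% interval of -0.35 to 0.15. It was -0.30 for Uba7 (-0.68 to 0.08) and -0.14 for Ube2l6 (-0.35 to 0.06). For Herc6 it was -0.08 (-0.25 to 0.10) and for Usp18 0.06 (-0.27 to 0.38). The intervals therefore leave room for a difference of some size in either direction for all 5 genes, and the widest is that of Uba7. The limma adjusted p-values ran from 0.51 to 0.91.

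The knockdown and the inhibitors have separate controls, so the sizes of their changes were compared in a fit of all 15 libraries. As a ratio to its own control, the protease Usp18 rose more with the Prmt1 hairpin than with either inhibitor. The Usp18 change in shPrmt1 cells exceeded that with MS023 by 1.17 on the log2 scale with an SE of 0.19 (limma adjusted p = 0.0019), and that with GSK3368715 by 1.12 with an SE of 0.19 (limma adjusted p = 0.0039). Both calls held in each of 26 alternative fits. Of all genes tested, 4.23% were called as higher in the knockdown than with MS023 and 2.47% as higher than with GSK3368715. In limma, Usp18 was the only one of the 5 genes called in these comparisons. The ratios start from different levels, since Usp18 stood at 15.5 RPM in shControl and 135 RPM in Vehicle. As a difference in level the order was turned, with a gain of 33.5 RPM in shPrmt1, 50.5 with MS023 and 56.3 with GSK3368715. For the other 4 genes, too, the gain in RPM was smaller in the knockdown than with either inhibitor. Gains in RPM were not tested between the experiments, and the effect of the treatment on a ratio and that of the starting level cannot be told apart.

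For the other genes the difference was not called, with wide intervals. For Isg15 the knockdown change exceeded the MS023 change by 0.38 with a 95% interval of 0.07 to 0.69 (limma adjusted p = 0.13), and the GSK3368715 change by 0.48 with an interval of 0.17 to 0.79 (limma adjusted p = 0.076). Uba7 differed by 0.64 (0.01 to 1.27) from MS023 and by 0.94 (0.31 to 1.56) from GSK3368715 (limma adjusted p = 0.21 and 0.091). Herc6 differed by 0.45 (0.12 to 0.77) and 0.52 (0.19 to 0.85), respectively (limma adjusted p = 0.092 and 0.071). These intervals lie above 0 before adjustment over all genes. Ube2l6 stood apart from them, with differences of -0.10 (-0.36 to 0.16) and 0.04 (-0.21 to 0.30) around 0 (limma adjusted p = 0.67 and 0.88). Without Vehicle replicate 2, Isg15 was called as well against MS023 (0.49, limma adjusted p = 0.031) and against GSK3368715 (0.59, 0.016), as was Uba7 against GSK3368715 (1.11, 0.044). Without shPrmt1 replicate 1, Herc6 was called against MS023 (0.57, limma adjusted p = 0.017) and against GSK3368715 (0.65, 0.013). The method changed these calls as well. DESeq2 on recovered reads called Herc6 against MS023 (adjusted p = 0.038), and Isg15, Uba7 and Herc6 against GSK3368715 (adjusted p = 0.028, 0.032 and 0.016). The limma fit with a replicate block called Herc6 against MS023 (adjusted p = 0.026), and Uba7 and Herc6 against GSK3368715 (adjusted p = 0.042 and 0.019).

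**Figure D2:**
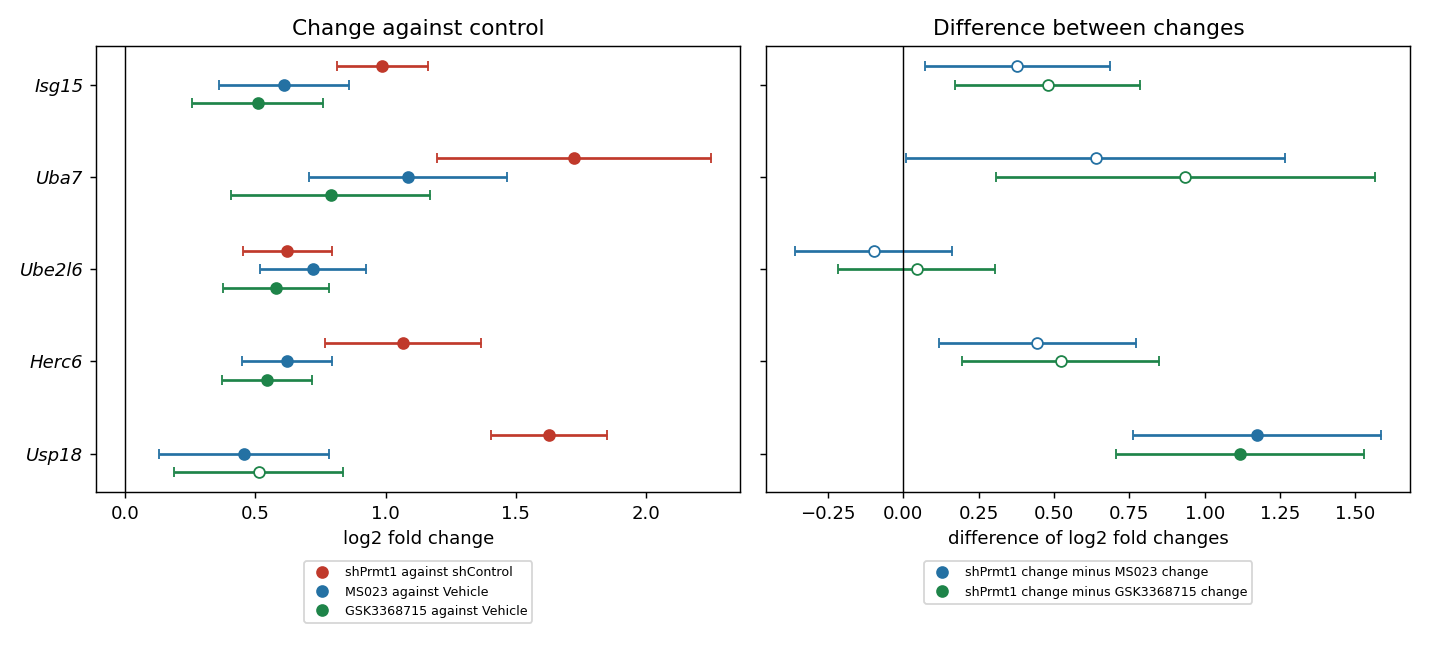
Log2 fold change of each gene against its own control (left) and the difference between the knockdown change and each inhibitor change (right), with 95% intervals; filled points had an adjusted p under 0.05 and open points did not. All changes lie to the right of 0, and in the right panel only the Usp18 points, at 1.17 and 1.12, are filled.

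To set the protease and the modifier against the enzymes between them, the mean log2 value of Uba7, Ube2l6 and Herc6 was subtracted from that of Usp18 or Isg15 within each library. This removes whatever scales all genes of a library alike. Its level depends on the lengths of the transcripts, so only its change between groups is read. For Usp18 the difference was 0.70, 0.43 and 0.44 in shControl and 1.14, 0.91 and 0.99 in shPrmt1. All shPrmt1 libraries were higher, and their mean lay 0.49 above that of shControl. The enzymes did not rise alike there, by 1.72 for Uba7, 1.07 for Herc6 and 0.62 for Ube2l6, beside 1.63 for Usp18. The difference is thus to the mean of the enzymes and not to each of them. With 3 libraries against 3 the smallest two-sided p is 0.1, which this reached (exact permutation test, p = 0.1), so no difference of this kind can pass 0.05.

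With MS023 the difference lay in the opposite direction, from a higher starting level. The mean difference for Usp18 was 0.52 in shControl, 1.01 in shPrmt1 and 1.02 in Vehicle. The part of the starting level in these changes was not tested. Usp18 minus the enzymes was 1.24, 0.86 and 0.97 in the Vehicle libraries and 0.64, 0.66 and 0.71 with MS023. Every MS023 library was below every Vehicle library, with a difference of -0.35 between the means (exact permutation test, two-sided, p = 0.1, the smallest possible). With GSK3368715 the values were 0.69, 1.01 and 1.00 and overlapped those with vehicle, with a difference of -0.12 (exact permutation test, two-sided, p = 0.6). For Isg15 minus the enzymes the change was -0.15 in the knockdown, -0.20 with MS023 and -0.13 with GSK3368715. The Isg15 libraries overlapped their controls in the knockdown (exact permutation test, p = 0.3) and with GSK3368715 (p = 0.5), and with MS023 they did not (p = 0.1).

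**Figure D3:**
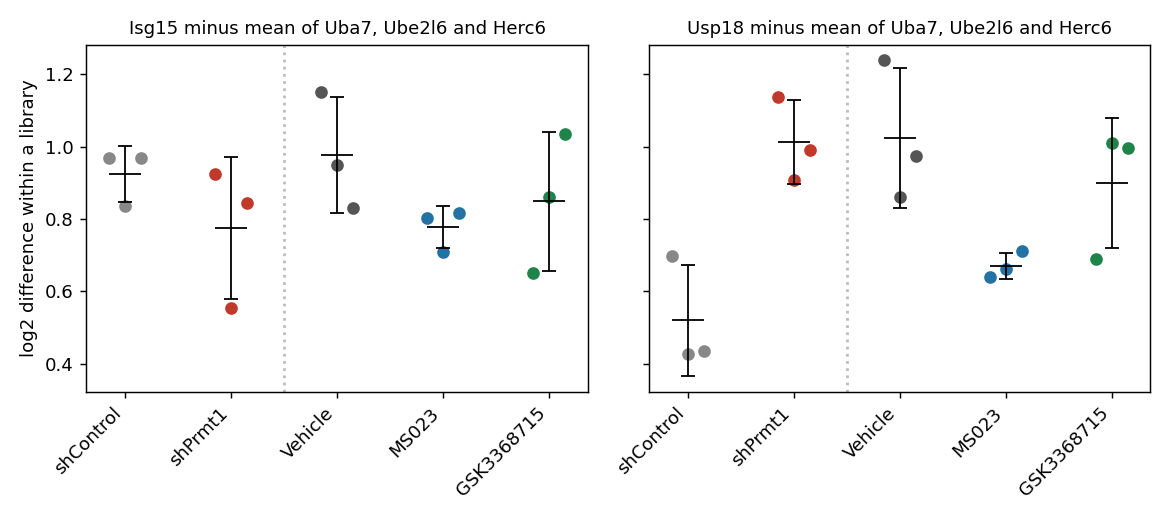
Log2 value of Isg15 (left) or Usp18 (right) minus the mean log2 value of Uba7, Ube2l6 and Herc6 in the same library, by group, with bars for the mean ± SD (n = 3). The Usp18 points of shPrmt1 all lie above those of shControl, and those of MS023 all lie below those of Vehicle.

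Levels of different genes were compared per length, as RPM per kilobase of the transcript with the longest coding sequence. On this scale Isg15 was the most abundant in every group and Uba7 the least, with Herc6 next above it. In shControl the order was Isg15 at 27.1 ± 0.623 (SD, n = 3), Ube2l6 at 20.2 ± 0.815, Usp18 at 8.77 ± 0.929, Herc6 at 3.81 ± 0.422 and Uba7 at 0.695 ± 0.185. The neighbours in this order lay apart by more than their SDs. In shPrmt1 the levels per length were 55.1 ± 3.40 for Isg15, 31.8 ± 1.75 for Ube2l6, 27.7 ± 0.907 for Usp18, 8.19 ± 1.18 for Herc6 and 2.35 ± 0.446 for Uba7. Usp18 had come close to Ube2l6.

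In the Vehicle libraries the levels per length were 171 ± 35.5 for Isg15, 76.2 ± 19.2 for Usp18, 66.2 ± 8.42 for Ube2l6, 21.9 ± 2.06 for Herc6 and 8.13 ± 1.70 for Uba7. Usp18 and Ube2l6 did not differ there beyond their spread, nor with GSK3368715 (108 ± 13.8 and 99.7 ± 10.3). With MS023 Isg15 reached 264 ± 9.39, Ube2l6 111 ± 5.35, Usp18 105 ± 3.17, Herc6 34.4 ± 0.908 and Uba7 17.4 ± 0.545. The machinery was thus already higher in Vehicle than in shControl cells, although both are CT26 controls. In RPM, Vehicle exceeded shControl by 3.28 times for Ube2l6, 5.75 times for Herc6, 6.32 times for Isg15, 8.69 times for Usp18 and 11.7 times for Uba7. These groups come from separate experiments, and the experiment, the hairpin vector and the vehicle cannot be told apart as sources of this gap.

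Further genes linked to ISG15 are ligases, proteases that react with it, a ligase that acts on Usp18, and the receptor for free ISG15. Of 12 such genes 10 were tested, and 3 were called higher in each comparison, while 0 were called lower. Over all genes tested, 7.5% were called higher in shPrmt1, 13.7% with MS023 and 5.16% with GSK3368715, and with so few genes these counts are a description of the list. Trim25, a ligase for ISG15 and ubiquitin, rose by 0.47 in shPrmt1, 0.37 with MS023 and 0.38 with GSK3368715 on the log2 scale (limma adjusted p = 0.0015, 2.5e-04 and 9.3e-04). Rnf213, a large ligase that binds ISG15, rose by 0.84, 0.35 and 0.56 (limma adjusted p = 1.5e-04, 0.0498 and 0.017). The protease Usp2 rose by 1.00, 0.59 and 0.46 (limma adjusted p = 0.016, 0.0048 and 0.035). The count with GSK3368715 was 1 without GSK3368715 replicate 3, and that with MS023 was 5 when the libraries were scaled to equal totals. In the knockdown the Usp2 call was lost without shControl replicate 1 or 2 or without shPrmt1 replicate 3. The remaining genes held the list's median near 0 in the knockdown, at -0.01, and at 0.16 with MS023 and 0.10 with GSK3368715.

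Of 7 genes from the type I interferon receptor to its transcription factors, 4 rose in shPrmt1 and none fell, against 7.5% of all genes called higher. Irf7, which drives interferon genes, rose most, by 1.80 on the log2 scale, followed by Irf9 at 0.64, Stat2 at 0.60 and the kinase Jak1 at 0.30. With MS023, where 13.7% of all genes were called higher, 3 rose and none fell, namely Irf7 by 0.93, Stat2 by 0.66 and the kinase Tyk2 by 0.28. With GSK3368715, where 5.16% of all genes were called higher, Irf7 rose by 0.68 and Stat2 by 0.59, and none fell. This count of 2 became 1 without Vehicle replicate 3 or without GSK3368715 replicate 2, and that of 3 with MS023 became 5 with equal totals. The list's medians were 0.30, 0.27 and 0.18 in the same order, beside medians of 0.00 for all genes tested. Usp18 protein acts at this receptor, whose chains Ifnar1 and Ifnar2 were not called in any of the comparisons.

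The relatives of each gene in other modifier pathways were followed as well, beside 7.17%, 14.1% and 4.47% of all genes called lower in shPrmt1, with MS023 and with GSK3368715. Called higher were 7.5%, 13.7% and 5.16% of all genes, in the same order. Of 12 other ubiquitin-like modifiers tested, 1 was called higher in shPrmt1 (Atg12, by 0.45) and 1 lower (Fau, -0.32). With MS023 Fau (-0.28) and Ufm1 (-0.33) fell. With GSK3368715 limma called 0 of them and 1 had an unadjusted p under 0.05, and edgeR and DESeq2 called 0. Of 9 other E1 genes none was called in shPrmt1 or with GSK3368715, and with MS023 Mocs3 rose by 0.32 and Uba3, which activates NEDD8, had a change of -0.25. At an unadjusted p under 0.05, limma gave 5 of the E1 genes in shPrmt1 and 2 with GSK3368715, where edgeR called 0 in both and DESeq2 called 3 and 1. These small counts also rested on single libraries. The modifiers called in shPrmt1 became 0 without shControl replicate 1 or 3 and 1 without shControl replicate 2 or shPrmt1 replicate 1. Those called with MS023 became 1 without any one of the Vehicle libraries or without MS023 replicate 2 or 3. The E1 genes called in shPrmt1 became 3 without shPrmt1 replicate 2, and with GSK3368715 1 without Vehicle replicate 1. With MS023 the E1 count of 2 became 0 without Vehicle replicate 3 or MS023 replicate 2 or 3, and 1 without Vehicle replicate 1, MS023 replicate 1 or GSK3368715 replicate 3.

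Of all genes tested, 7.5%, 13.7% and 5.16% were called higher in shPrmt1, with MS023 and with GSK3368715, and 7.17%, 14.1% and 4.47% lower. Beside these shares, the counts of E2, HERC and USP genes are a description of the lists and no result about the families. Of 34 other E2 genes 1 rose in shPrmt1 (Ube2h, by 0.31) and 1 fell (Ube2z, -0.60). With MS023 2 rose and 6 fell, the largest of them Ube2e2 (-0.36), Ube2c (-0.35), Ube2s (-0.33) and Ube2m (-0.23). With GSK3368715 Ube2l3, the closest relative of Ube2l6, rose by 0.17 and Ube2c had a change of -0.19. The counts of called E2 genes rested on single libraries. In shPrmt1 the 2 became 1 without shControl replicate 1 or 2 or without shPrmt1 replicate 1 or 3, and 4 without shPrmt1 replicate 2. With MS023 the 8 became 4 without MS023 replicate 1 and 5 without replicate 2 or 3. With GSK3368715 the 2 became 0 or 1 whichever library was left out. The other HERC genes, 3 tested in the knockdown and 4 with the inhibitors, had no call in limma, edgeR or DESeq2, and 0 at an unadjusted p under 0.05. Of 40 other USP genes 3 rose in shPrmt1 and none fell, namely Usp2 by 1.00, Usp49 by 0.36 and Usp24 by 0.30. This count was 0 without shControl replicate 1 or 2 or without shPrmt1 replicate 3, 1 without shControl replicate 3, 5 without shPrmt1 replicate 2 and 7 with the replicate block. With MS023 6 rose and 6 fell, the largest being Usp35 (0.73), Usp45 (-0.60), Usp2 (0.59) and Usp36 (-0.35). With GSK3368715 3 rose and none fell, namely Usp2 by 0.46, Usp25 by 0.33 and Usp49 by 0.32, and the count was 1 without GSK3368715 replicate 3. Usp2 is counted here and among the genes linked to ISG15. The medians of these lists lay between -0.09 and 0.13, while those of the 5 genes of the machinery were 1.07, 0.62 and 0.54.

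**Figure D4:**
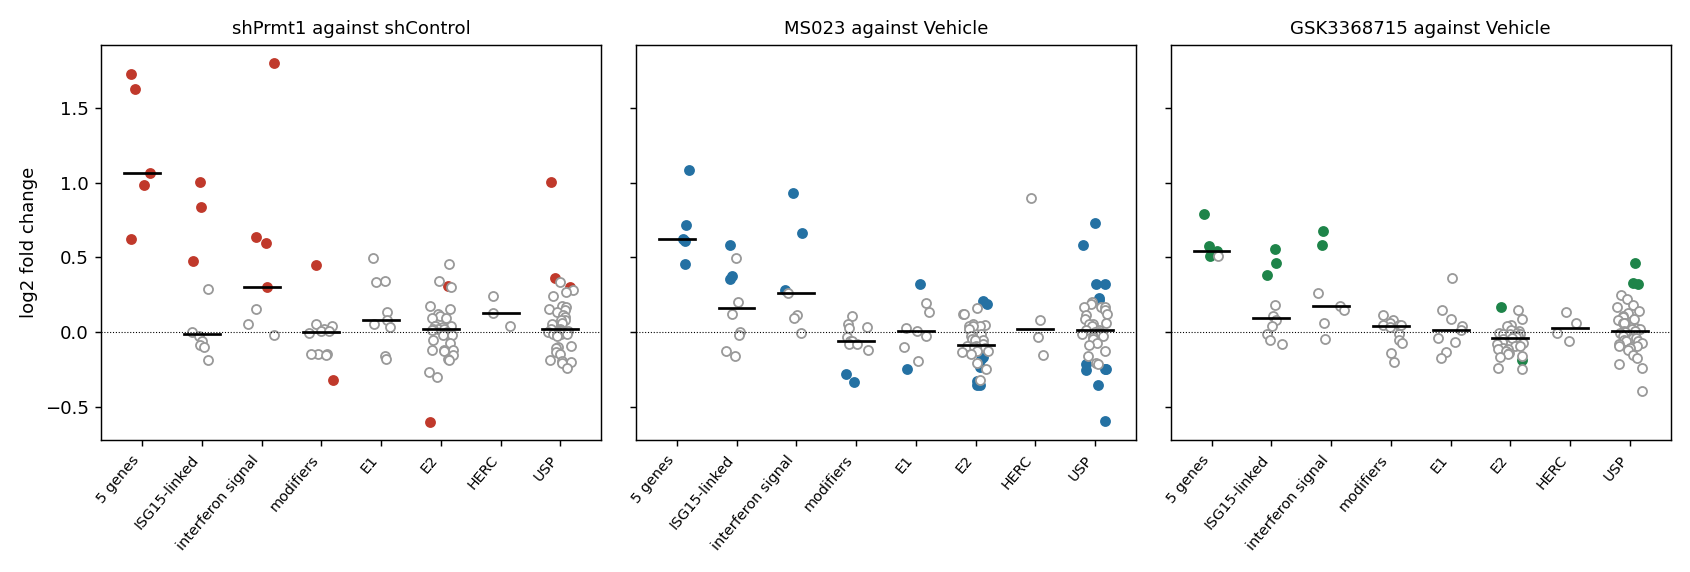
Log2 fold changes of the 5 genes of the ISG15 machinery and of 7 lists of related genes in the 3 comparisons with control; filled points had an adjusted p under 0.05, open points did not, and black lines are medians. The modifier, E1, E2, HERC and USP lists centre near 0, below the medians of 1.07, 0.62 and 0.54 for the 5 genes.

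The genes most like the machinery were found from each gene's log2 deviations from the control mean of its own experiment. The distance was the root mean square difference from the mean profile of the 5 genes over 15 libraries, among 11471 genes tested in both experiments. The 10 nearest were Trim12c (0.089), Samd9l (0.12), H2ax (0.12), Vwa5a (0.12), Serpinb9 (0.12), Irgm1 (0.12), H2-Q4 (0.13), Mipol1 (0.14), Oas1a (0.14) and Igtp (0.14), all distances on the log2 scale. The median distance over all other genes was 0.71. The 5 genes themselves lay at 0.14 (Herc6) to 0.36 (Uba7) from their own mean. Trim12c, H2-Q4, Irgm1 and Oas1a belong to families with close copies, among which the counting may split reads.

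The nearest gene to each of the 5 was sought among the same 11471 genes, so a gene outside the machinery had far more chances to be nearest than one of the other 4. The nearest of the other 4 ranked 17th for Isg15, 61st for Uba7, 73rd for Ube2l6, 5th for Herc6 and 55th for Usp18. For Isg15 the nearest gene was Oas1a, an enzyme that senses double-stranded RNA, at 0.034, while its nearest partner in the machinery, Herc6, lay at 0.15. Ube2l6 was nearest to Tapbp (tapasin), which helps load peptides onto MHC class I, at 0.058, with Isg15 at 0.19. Herc6 had Vwa5a at 0.12 and Isg15 at 0.15, and Usp18 had the interferon-induced GTPase Irgm2 at 0.11 and Isg15 at 0.31. Uba7 had the widest distances, with Slfn10-ps at 0.24 and Usp18 at 0.38.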

How the data were processed

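RNA-sequencing libraries were prepared by the authors from mRNA, sequenced as paired-end reads and quantified with Salmon 1.4.0 on mm10. The signal that the authors deposited is gene counts divided by DESeq2 size factors, in a table for each experiment. All values (100%) were whole multiples of 1 constant per library within 0.01, so reads could be recovered. The version of the authors' DESeq2, the annotation and the strand setting are not given in the sources used here. A further 3 deposited tables hold the authors' own fold changes and p-values and were not used.

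A gene entered a fit if 3 or more of its libraries reached 10 normalized counts. The log2(normalized count + 1) was tested with limma (eBayes with trend, two-sided), adjusted by Benjamini-Hochberg over all genes tested, with a threshold of 0.05. Adding 1 shrinks the changes of rare transcripts, of which Uba7 in the knockdown is the nearest case. The 6 knockdown libraries made 1 fit, the 9 inhibitor libraries another, and all 15 libraries a fit for the difference between changes, over genes that passed in both experiments. Alternatives were other pseudocounts, filters and scalings, no trend, a replicate block, only the groups compared, a minimum fold change, each library left out, and edgeR and DESeq2 on the recovered reads. Other settings for the nearest genes were chosen after seeing the data. No libraries of a group agreed within sampling noise (chi-square per degree of freedom 4.38 to 79.9), so none was counted as deposited in duplicate. Gene positions and transcript lengths came from GENCODE on mm10 and promoters from RefSeq. The genes, lists and tests were chosen with earlier results of these data known, and Uba7 was also among the genes the study picked for RT-qPCR. The text names the 5 genes, at most 4 called genes per list and comparison by size of change, the 10 genes nearest in profile, and the nearest gene to each of the 5. The lists were genes linked to ISG15, interferon signalling, other modifiers, other E1, E2, HERC and USP genes, and epithelial, leukocyte, endothelial and mesenchymal markers. Some genes of these lists are not reported here and were left out of their counts. Fits were tested on simulated data with absolute log2 changes of 1 and 2 and a preset spread between replicates. Recovery of smaller changes, such as most of those with the inhibitors, or at the spread of these libraries, was not tested. Software was limma 3.58.1, edgeR 4.0.16 and DESeq2 1.42.0 under R 4.3.3.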

Additional observations from a re-analysis of the deposited data

Results flagged for a closer look

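Changes that differed between the knockdown and an inhibitor, by a limma test of the difference itself over 15 libraries, were noted for the 5 genes and for the related lists. Of all 11471 genes tested, 875 were called in either direction against MS023 and 471 against GSK3368715. The few calls named below are therefore a description of these genes only. Usp18 is described above, with differences of 1.17 against MS023 and 1.12 against GSK3368715 (adjusted p = 0.0019 and 0.0039). As a ratio, Irf7 rose more in the knockdown than with MS023, by 0.87 on the log2 scale (limma adjusted p = 0.012), and more than with GSK3368715, by 1.13 (adjusted p = 0.0034). These are ratios to controls at different levels, which were 11.8 RPM of Irf7 in shControl and 123.3 RPM in Vehicle. In RPM (reads scaled to the reads of the library) Irf7 gained 30.3 in shPrmt1, 113 with MS023 and 72.7 with GSK3368715, and Usp18 gained 33.5, 50.5 and 56.3, so the order of the gains in level was not that of the ratios.

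The E2 gene Ube2z fell by 0.60 in the knockdown and had changes of 0.05 and 0.01 with the inhibitors, which gave differences of -0.65 against MS023 and -0.62 against GSK3368715 (limma adjusted p = 0.0010 and 0.0020). Against MS023, Ube2e1 differed by 0.30 (limma adjusted p = 0.019), from changes of 0.17 in the knockdown and -0.13 with MS023. Usp39 differed by 0.27 (limma adjusted p = 0.035), from changes of 0.02 and -0.25. The USP genes called against MS023, 1 in all, became 0 with no filter or with upper quartile scaling. This count was also 0 without shControl replicate 3 or without MS023 replicate 2 or 3, and it reached 6 with the replicate block. The E2 count of 2 against MS023 became 1 without shControl replicate 1 or 3 or without MS023 replicate 2 or 3. Single libraries left out gave 1 to 3 E2 calls. Groups of 3 libraries are too small for a test of single outlying libraries.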

How the results depend on the processing

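The 30 changes of the 5 genes were recomputed 660 times in all, and 614 kept their direction and their side of the threshold, 29 lost a call, 14 gained one and 3 turned direction. The turned values were all near 0 and not called: Usp18 between the inhibitors was -0.047 without GSK3368715 replicate 2, and Ube2l6 between the knockdown and GSK3368715 was -0.045 without Vehicle replicate 1 and -0.018 without GSK3368715 replicate 3. A minimum of 1 on the absolute log2 fold change left 3 genes called in the knockdown, 1 with MS023 and 0 with GSK3368715, by construction. With GSK3368715, 2 genes were called with no trend in eBayes and 2 with only the groups compared in the fit. Leaving out single libraries gave 2 to 5 genes with GSK3368715 (2 without GSK3368715 replicate 2), and 4 to 5 with MS023. For the difference between the knockdown and an inhibitor, DESeq2 called 2 genes against MS023 and 4 against GSK3368715, and leaving out single libraries gave 1 to 2 and 1 to 3. The causes of the remaining shifts were not tested.

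Replicate numbers were not taken to pair the libraries: same-numbered libraries had correlated deviations of 0.06 to 0.12 in the knockdown and -0.10 to 0.11 in the inhibitor experiment. In the knockdown every library correlated best with its own number, as a hint from the data. With a replicate block, 2671 genes were called in the knockdown against 1684 without it, and the difference between changes was called for 2 of the 5 genes against MS023 and 3 against GSK3368715. The block took the Usp18 call with MS023 (adjusted p = 0.070) and no other call of the 5 against control. Over all genes, leaving out single libraries gave 652 to 2472 calls in the knockdown, 2409 to 3726 with MS023 and 586 to 1274 with GSK3368715, and 2 to 114 between the inhibitors. A minimum fold change gave 275, 365, 114 and 4, respectively. Between the inhibitors, DESeq2 called 365 genes, against 38 with no filter, 8 with no trend and 4 with the block. With GSK3368715, 597 were called with only the groups compared. Counts of called genes in the lists of relatives were small and shifted too, as for the other E2 genes with GSK3368715, where single libraries left out gave 0 to 1 calls and other settings 0 to 3. Of the 10 genes nearest in profile, 10 were shared with a pseudocount of 0.5, 9 with a pseudocount of 5 and 9 with equal totals. With 3 libraries per group, exact tests of single values cannot go below 0.1.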
